A study of Mus musculus with 9 samples.

Results

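A set of 10 genes from the amino acid arm of the stress response run by the transcription factor ATF4 was followed in mouse embryonic stem cell cultures as they were differentiated to cardiomyocytes: Chac1, Trib3, Asns, Ddit3, Ddit4, Atf3, Atf4, Sesn2, Psat1 and Phgdh. They were chosen by name, with earlier results of these data known, so counts of them set against all genes are descriptions. All 10 were found among the 18193 genes measured. The array carries 22 probe sets annotated to them, of which 20 carry the symbol of 1 gene. RNA was taken at day 10, day 20 and day 30 of differentiation, with 3 one-colour arrays at each day and 1 log2 signal per probe set and array. All 3 groups came from the synp line, made from R1 embryonic stem cells of a 129X1 x 129S1 background, in which the Ncx1 promoter drives the puromycin resistance gene PAC. The factors activin A, BMP4, VEGF, FGF10 and bFGF were given in all groups. Puromycin was present from day 7 to select cells in which the promoter is active. By their labels the groups differ in the time in culture, and with it in the time under puromycin. The time in culture and the time under puromycin cannot be told apart here. Only 1 line was used. Whether arrays of 1 day came from separate differentiations is not stated, so p-values measure the spread between these arrays, which may be technical.

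When amino acids run short, when unfolded protein builds up in the endoplasmic reticulum or when mitochondria are impaired, kinases phosphorylate the translation factor eIF2alpha. General translation then falls while the Atf4 transcript is translated more, and ATF4 protein, with partners of the C/EBP family, raises genes for amino acid uptake and synthesis as well as genes that limit growth or favour cell death. Because the main control of ATF4 is on translation, its transcript level is not a measure of its activity.

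Chac1, Trib3 and Ddit3 were higher at day 30 than at day 10 and passed the test (adjusted p under 0.05 over all genes by limma), by about 10.5-fold, 5.24-fold and 2.54-fold. Of the 10 genes 0 were called as falls, which for so few genes is near the 9.92% of all genes called so. These 3 of 10 calls stand against 21.1% of all genes called in that comparison, and the 3 rises against 11.2% of all genes that rose. The median difference of the 10 genes was 0.50 on the log2 scale, against -0.03 over all genes. The serine synthesis gene Psat1 was the member with the lowest difference, at -1.16, and did not pass, though it did in 2 of 18 alternatives. In 6 of the 10 genes every day 30 array lay above every day 10 array, and in 0 every day 30 array lay below, against 17.4% and 18.8% of all genes. Of the 10 genes, 3 also passed the moderated F test over the 3 days, against 17.5% of all genes.

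Among the transcription factors, Ddit3, which encodes CHOP, a C/EBP family protein induced by ATF4, was the one member called by day 20. Its log2 signals were 7.85, 7.74 and 8.13 at day 10, 8.48, 9.49 and 8.79 at day 20, and 9.04, 9.37 and 9.36 at day 30. No day 20 or day 30 array overlapped with day 10. Day 20 exceeded day 10 by 1.01 (SE 0.25, limma adjusted p = 0.0319), the single call among the 10 genes in that interval, where 14% of all genes were called and 7.3% rose. Day 30 exceeded day 10 by 1.35 (SE 0.25, limma adjusted p = 0.00709). The call of day 20 over day 10 was lost without any one of day 10 replicate 1, day 10 replicate 2, day 20 replicate 2, day 20 replicate 3 or day 30 replicate 3 (adjusted p up to 0.0974), and in a fit of only these 2 days (adjusted p = 0.0807). Its second probe set stood at 5.67 ± 0.06, 5.99 ± 0.40 and 6.64 ± 0.57 over the 3 days (SD, n = 3), and its difference of 0.96 between day 30 and day 10 had a limma adjusted p of 0.0599 over all probe sets (15.1% of which were called).

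Atf4 itself did not pass in any comparison. Its log2 signals were 10.83, 10.75 and 10.89 at day 10, 10.23, 11.00 and 10.88 at day 20, and 10.92, 11.69 and 11.61 at day 30. The day 30 arrays lay just above those of day 10, and replicates 2 and 3 of day 30 were the highest of all 9 arrays. Day 30 differed from day 10 by 0.58 (95% interval 0.01 to 1.16, limma adjusted p = 0.142), and passed in 1 of 18 alternatives, that without day 30 replicate 1 (0.83, adjusted p = 0.0486). A second probe set of Atf4 differed by a similar 0.61, while the third, which lay between 4.56 and 4.85 on all arrays, differed by 0.07.

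Atf3, another transcription factor of this response and also an immediate early gene that many stimuli induce, had no call either. It measured 8.67, 6.34 and 7.32 at day 10, 5.81, 6.84 and 6.23 at day 20, and 7.07, 7.23 and 7.03 at day 30. The day 10 arrays spanned 2.32 log2 units, with replicate 1 the highest of all 9 arrays, and enclosed the day 30 arrays, which lay within 0.20 of each other. The difference between day 30 and day 10 was -0.34 (95% interval -1.53 to 0.86, limma adjusted p = 0.707), and it was 0.27 without day 10 replicate 1 and 0.34 with array weights.

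**Figure D1:**
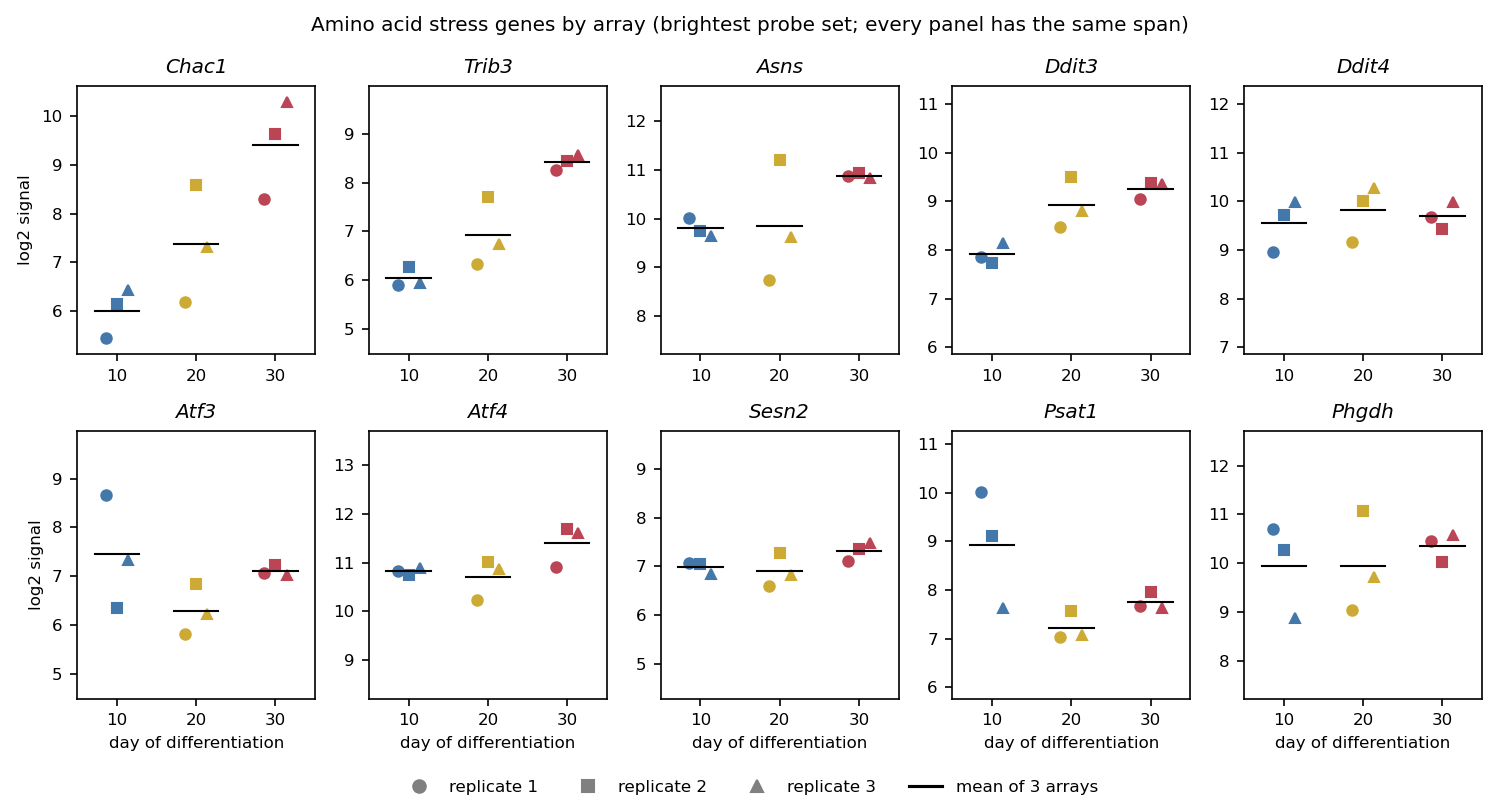
Log2 signal of the 10 genes (brightest probe set) on each of the 9 arrays, by day of differentiation, with a black bar for the mean of 3 arrays. The 3 arrays of day 30 lie above those of day 10 in Chac1, Trib3, Asns, Ddit3, Atf4 and Sesn2, and day 20 replicate 2 (square) is the highest of its day in every gene but Ddit4.

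Chac1 and Trib3 are induced by ATF4 and CHOP, and both rose. Chac1 encodes an enzyme that breaks down glutathione in the cytosol. Its log2 signals were 5.44, 6.15 and 6.44 at day 10, 6.19, 8.59 and 7.31 at day 20, and 8.30, 9.63 and 10.29 at day 30. Every day 30 array lay above every day 10 array, while the day 20 arrays spanned 2.40 log2 units and overlapped with both other days. Day 30 exceeded day 10 by 3.40 (SE 0.67, 95% interval 1.86 to 4.94, limma adjusted p = 0.00987). The difference was between 2.96 and 3.95 when any one array was left out, and it passed each time. Neither the rise of 1.36 between day 10 and day 20 (adjusted p = 0.223) nor that of 2.04 between day 20 and day 30 (adjusted p = 0.315) passed on its own. Trib3 encodes a pseudokinase that binds ATF4 and CHOP and feeds back on them. It had log2 signals of 5.89, 6.28 and 5.95 at day 10, 6.34, 7.71 and 6.74 at day 20, and 8.26, 8.44 and 8.58 at day 30, so that the 3 days did not overlap. Day 30 exceeded day 10 by 2.39 (SE 0.31, 95% interval 1.67 to 3.11, limma adjusted p = 0.00181). Its second probe set, of a type in which probes can match other transcripts, gave 2.68 (adjusted p = 0.00263 over all probe sets). Day 20 exceeded day 10 by 0.89 (adjusted p = 0.0977, and 0.0472 without day 20 replicate 1), and day 30 exceeded day 20 by 1.50 (adjusted p = 0.126, and 0.0293 without day 20 replicate 2).

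ATF4 and C/EBP proteins bind together at a composite site known as the C/EBP-ATF response element. Its core was searched for as TGATGNAA, on both strands, in the window from 250 bases before to 50 after each start site in RefSeq (GRCm38.p6). All 10 genes had a window, and 4 of them, Chac1, Trib3, Asns and Atf3, held a match, against 4.51% of all 27025 genes with a window. The 10 genes were chosen as part of the ATF4 response, so their share may come from that choice and was not tested. Matches are shown because 2 of these 4 genes are among the 3 that rose, with capitals for the matched letters and each sequence on the gene's own strand. The windows of Ddit3, Ddit4, Atf4, Sesn2, Psat1 and Phgdh did not hold these letters, which says nothing of sites elsewhere. In Chac1 the match begins 193 bases before the start (chr2:119350992-119351241, plus strand), in Asns 23 bases before it (chr6:7693210-7693272, minus strand) and in Atf3 110 bases before it (chr1:191183396-191183483, minus strand). In Trib3 it begins 14 bases after the first transcribed base (chr2:152344039-152344086, minus strand).
Chac1: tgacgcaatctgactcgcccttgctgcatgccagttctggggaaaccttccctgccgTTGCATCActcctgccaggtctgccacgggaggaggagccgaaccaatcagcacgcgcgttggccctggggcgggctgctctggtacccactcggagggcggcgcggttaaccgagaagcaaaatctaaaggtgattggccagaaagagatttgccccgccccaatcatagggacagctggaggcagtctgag
Trib3: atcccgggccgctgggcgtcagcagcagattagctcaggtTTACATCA
Asns: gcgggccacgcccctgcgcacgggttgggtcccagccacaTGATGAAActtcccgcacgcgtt
Atf3: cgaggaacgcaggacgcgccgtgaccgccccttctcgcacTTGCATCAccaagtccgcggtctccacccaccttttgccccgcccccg
A match is a description of the letters, and binding was not measured. Of the 4 genes, Chac1 and Trib3 rose between day 10 and day 30, Asns did not pass and Atf3 had a negative difference.

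**Figure D2:**
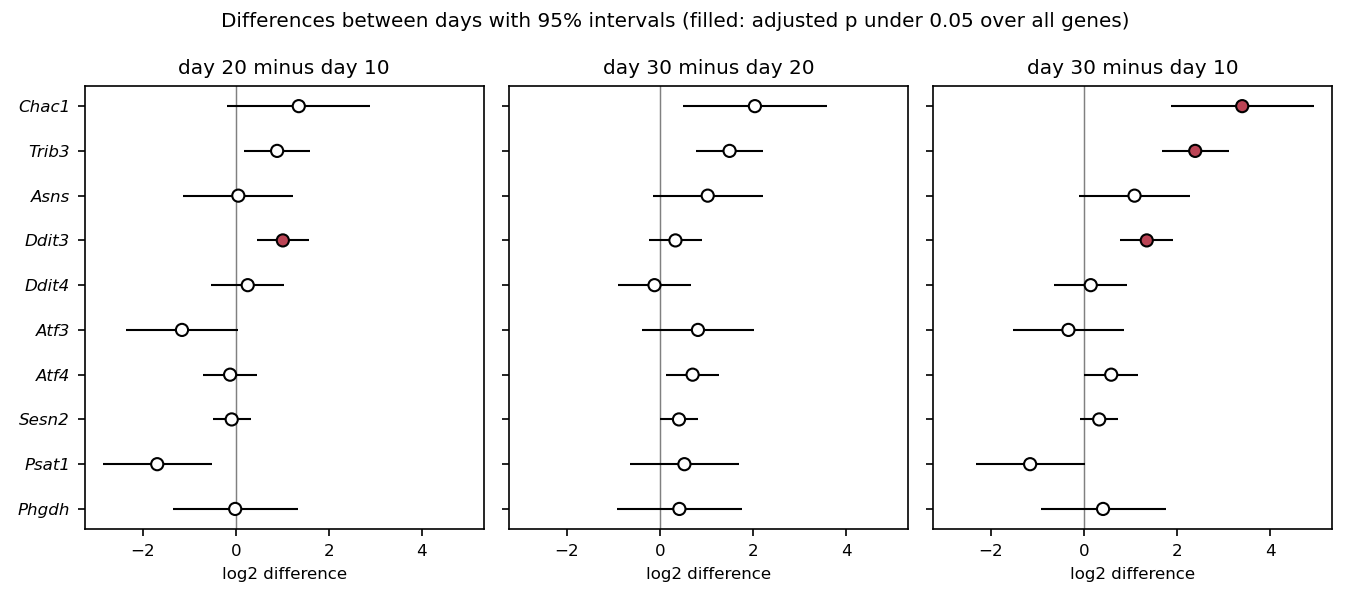
Log2 difference between days for the 10 genes, with 95% intervals from limma, in the 2 intervals and over the whole period. The filled points, which passed, are Ddit3 in the first interval and Chac1, Trib3 and Ddit3 over the whole period.

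The enzymes of asparagine and serine synthesis did not move as a block. Asns encodes asparagine synthetase, a standard readout of amino acid shortage. Its log2 signals were 10.01, 9.74 and 9.65 at day 10, 8.74, 11.21 and 9.62 at day 20, and 10.88, 10.94 and 10.83 at day 30. The day 30 arrays lay within 0.11 of each other and above all day 10 arrays, whereas day 20 held both the lowest and the highest of the 9 values. Day 30 differed from day 10 by 1.08 (95% interval -0.10 to 2.27, limma adjusted p = 0.181). The same difference had an adjusted p of 0.0165 without day 20 replicate 2 and 0.00518 in a fit of only the 2 days compared.

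Phgdh encodes the enzyme of the first step of serine synthesis, and its log2 signals were 10.70, 10.26 and 8.87 at day 10, 9.03, 11.06 and 9.71 at day 20, and 10.45, 10.02 and 10.58 at day 30. The 3 days overlapped, and the spread within day 10 and day 20 (SD 0.95 and 1.04) was larger than any difference between days. Day 30 differed from day 10 by 0.41 (95% interval -0.93 to 1.75, limma adjusted p = 0.68), and by -0.13 without day 10 replicate 3. All 6 probe sets of Phgdh put day 20 replicate 2 highest within its day. Of these, 2 are also annotated to the genes Gm8096 or Gm6756. By their names all 6 are of types in which probes can match other transcripts, so signal from near-identical copies cannot be set apart. The second probe sets of Trib3, Asns, Atf4 and Psat1 that gave values like the brightest are of these types too.

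Psat1, which encodes the enzyme of the next step, measured 10.01, 9.11 and 7.63 at day 10, 7.04, 7.58 and 7.08 at day 20, and 7.68, 7.97 and 7.62 at day 30. Replicates 1 and 2 of day 10 stood above all other arrays, while day 10 replicate 3 lay among those of day 30. Day 20 was below day 10 by 1.69 on the mean (difference -1.69, 95% interval -2.86 to -0.52, limma adjusted p = 0.0633) without overlap between the arrays, as in 17.3% of all genes, and day 30 differed from day 10 by -1.16 (adjusted p = 0.149). Without day 10 replicate 3 both differences passed, at -2.33 (adjusted p = 0.00174) and -1.80 (adjusted p = 0.00358). Its second probe set gave -1.48 (adjusted p = 0.179 over all probe sets, of which 9.02% were called) and -1.25 (adjusted p = 0.219). In the same arrays, the median of 13 cell cycle genes relative to their means over all arrays was 1.52 and 1.90 in day 10 replicates 1 and 2, and -0.24 in day 10 replicate 3. Its part in the Psat1 values was not tested.

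The 2 members that restrain the growth kinase complex mTORC1 were nearly level. Ddit4, also known as REDD1, answers to hypoxia and glucocorticoids as well as to ATF4. It measured 8.96, 9.71 and 9.98 at day 10, 9.16, 10.00 and 10.27 at day 20, and 9.67, 9.43 and 9.98 at day 30, with overlap throughout. Its difference between day 30 and day 10 was 0.14 (95% interval -0.64 to 0.93, limma adjusted p = 0.817), and it was -0.15 without day 10 replicate 1. Sesn2 encodes a leucine sensor and is also a p53 target. It measured 7.07, 7.05 and 6.85 at day 10, 6.60, 7.28 and 6.83 at day 20, and 7.11, 7.35 and 7.48 at day 30. Its day 30 arrays lay above those of day 10 by a narrow margin (0.33, 95% interval -0.09 to 0.74, limma adjusted p = 0.247), but its other probe set gave 0.03.

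**Figure D3:**
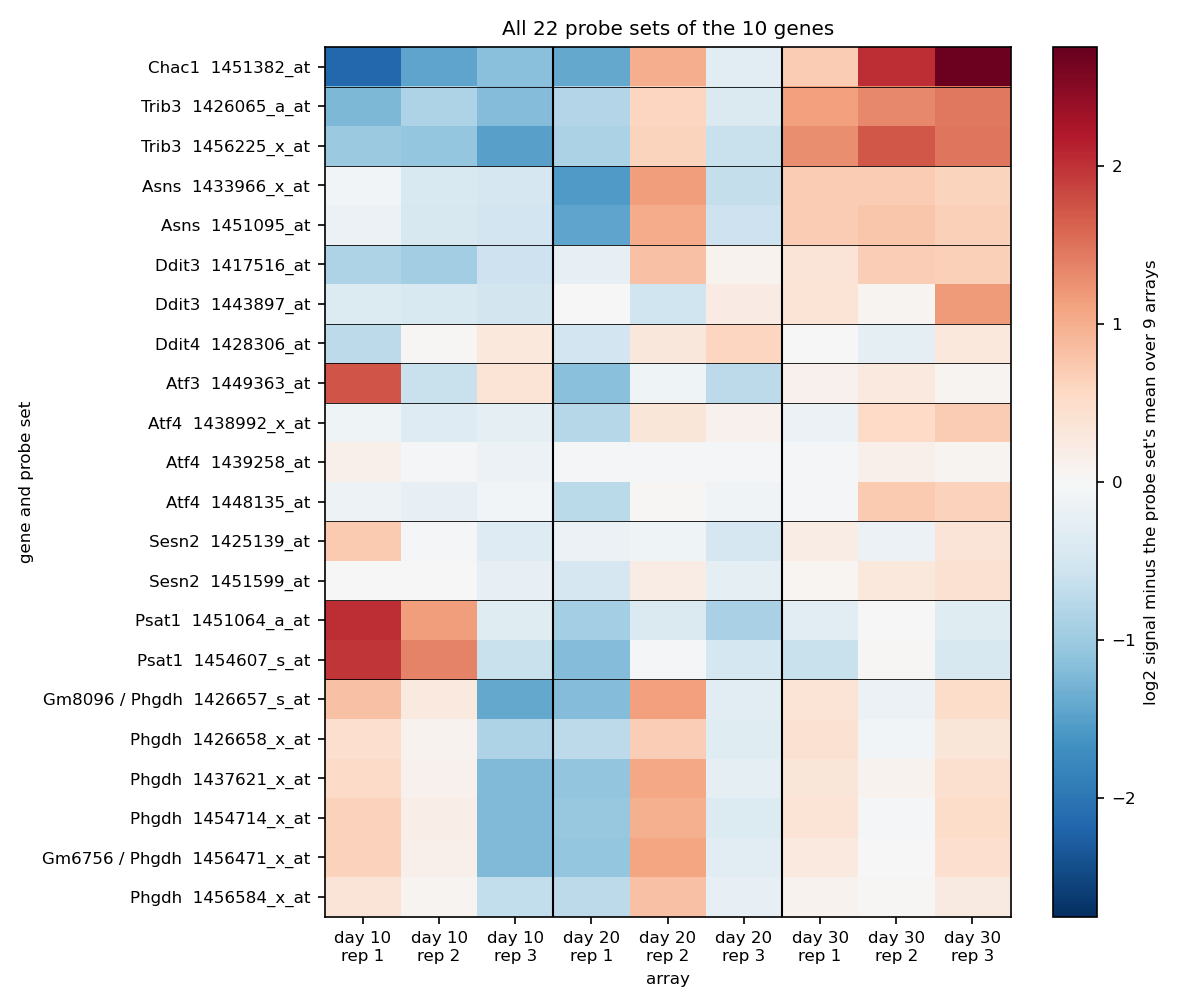
Log2 signal of all 22 probe sets on the 9 arrays, each relative to its own mean, in the order of the genes. Both probe sets of Trib3, Asns and Psat1 and the 6 of Phgdh show like patterns. The dimmer probe sets of Ddit3 and Sesn2 and the dimmest of Atf4 depart from the brightest probe set of their gene.

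Between day 20 and day 30, 9 of the 10 genes had positive differences, with a median of 0.62 against 0.0045 over all genes, but limma called 0 of the 10 (3 at an unadjusted p under 0.05). In that interval 0.335% of all genes were called, 0.291% as rises and 0.044% as falls. The day 30 arrays lay wholly above those of day 20 in 3 of the 10 genes (Trib3, Atf3 and Psat1) and wholly below in 0, against 11.7% and 9.72% of all genes. With array weights 1 member was called there, Trib3 (adjusted p = 0.0487). Between day 10 and day 20, 5 differences were positive and 5 negative (median 0.02 against -0.03 over all genes). In that interval the later arrays lay wholly above in 2 members, Trib3 and Ddit3, against 14.5% of all genes. The later change differed from the earlier one in 0 of the 10 genes by limma, where 0.478% of all genes were called. The members nearest to a difference were Psat1 (2.21, adjusted p = 0.289) and Atf3 (1.97, adjusted p = 0.346), and Psat1 was called with array weights (2.38, adjusted p = 0.0275) and without day 10 replicate 3 (2.86, adjusted p = 0.0141).

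The day 20 arrays were ordered alike in most members. By the brightest probe sets, replicate 1 was the lowest of the 3 in 10 of the 10 genes, against 7574 of all 18193 genes. Its median difference from the mean of the other arrays of that day was -0.81 (-0.04 over all genes). Some dimmer probe sets were ordered otherwise in replicates 1, 2 and 3. That of Ddit3 measured 6.09, 5.56 and 6.34, that of Sesn2 6.67, 6.72 and 6.36, and the dimmest of Atf4 4.69, 4.68 and 4.66. In the brightest probe sets, replicate 2 was at the other end. In 9 of the 10 genes it was the highest of the 3 day 20 arrays, against 35.7% of all genes, with Ddit4 as the exception. It exceeded the mean of the other two by 2.03 in Asns, 1.84 in Chac1, 1.70 in Phgdh, 1.18 in Trib3 and 0.85 in Ddit3, and the median over the 10 genes was 0.84 against 0.01 over all genes. Other genes of amino acid supply were mixed there, with 7 of 12 transporters highest and 4 lowest, and 9 of 16 genes of serine, glycine and one-carbon metabolism highest and 5 lowest. Among those highest, Slc7a5, the transport chain of a neutral amino acid carrier, measured 8.80, 10.57 and 9.31 at day 20, and Mthfd2, a mitochondrial folate enzyme, 7.50, 9.70 and 8.19. On that array 13 of 15 hypoxia genes were also the highest of the day, and 13 of 13 cell cycle genes the lowest. Over all 18193 genes, 6494 were the highest there and 5775 the lowest. The 22 genes of endoplasmic reticulum chaperones and the unfolded protein response were not raised as a group (5 highest and 9 lowest, median difference 0.01). The difference between 3 prime and 5 prime probe sets of actin, a sign of RNA quality, was 0.34, 0.59 and 0.47 in day 20 replicates 1, 2 and 3, the same order as most members, and its part in their order was not tested. The order was picked out after its values were seen, so these are descriptions with no test.

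The other genes of the pathway were counted in lists drawn up by function. Some genes stand in more than 1 list, so the counts are not separate. Of those tied to ATF4 or CHOP, Ndrg1, which rose, and Ero1a are also counted as hypoxia genes, and Rars, which fell, as a synthetase gene. Of 19 other genes tied to ATF4 or CHOP, 8 rose and 2 fell between day 10 and day 30, with a median of 0.44, where 11.2% of all genes rose and 9.92% fell. The 10 calls were 6 without day 10 replicate 2 or without day 30 replicate 2. Nupr1, a stress-induced chromatin protein gene, averaged 5.43 ± 0.61 at day 10, 9.79 ± 0.42 at day 20 and 10.70 ± 0.41 at day 30 (SD, n = 3), a rise of 5.27 (limma adjusted p = 0.000107). Cebpb, which encodes a binding partner of ATF4, rose by 2.29 (adjusted p = 0.000414) and was also called between day 20 and day 30 (1.41, adjusted p = 0.0448). Atf5, a transcription factor gene that ATF4 and CHOP induce, rose by 2.21 (adjusted p = 0.00197). The 2 that fell were Atg12 (-0.55), an autophagy gene, and Rars (-0.83), an arginyl-tRNA synthetase gene. Of the 9 genes for eIF2alpha kinases, phosphatase subunits and their regulators, 1 rose, Eif2ak3 (0.71, adjusted p = 0.034), the kinase PERK of the endoplasmic reticulum, and 1 fell, Gcn1 (-0.45, adjusted p = 0.0185), an activator of the amino acid sensor GCN2. The gene of GCN2 itself, Eif2ak4, differed by -0.04 (adjusted p = 0.944). A count of 1 gene of 9 in each direction is near the share of all genes, and the calls were 0 without day 10 replicate 1 or day 30 replicate 1 and 1 without replicate 2 of either day.

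Amino acid carriers were divided, and the shares of all genes given above apply to each list. Of 12 transporter genes 4 rose and 2 fell between day 10 and day 30. Those that rose were Slc7a5 (1.61), the neutral amino acid carrier Slc1a4 (1.28), the glycine carrier Slc6a9 (0.87) and Slc38a2 (0.82), a carrier induced when amino acids run short, while Slc43a1 (-1.59) and Slc38a1 (-1.28) fell. Slc7a11, the cystine carrier, differed by 0.0017 (adjusted p = 0.993). The genes that charge tRNAs, several of which are ATF4 targets, had no call as a rise. Of 19 cytosolic aminoacyl-tRNA synthetase genes 0 rose and 5 fell, with a median of -0.20, led by Kars (-0.74), Qars (-0.67), Rars and Vars (-0.52). Others of the 19 had positive differences that did not pass, the highest in Yars (0.35, adjusted p = 0.224) and Aars (0.31, adjusted p = 0.394). Of 16 genes of serine, glycine and one-carbon metabolism, 2 rose and 3 fell (median -0.23). The mitochondrial folate enzyme gene Aldh1l2 (1.88) and the mitochondrial serine hydroxymethyltransferase Shmt2 (0.91) rose, while the cytosolic form Shmt1 (-1.83) and the glycine cleavage genes Gldc (-1.96) and Gcsh (-1.06) fell. Of 10 genes of proline, aspartate, glutamine and related synthesis 4 rose and 0 fell (median 0.64): Aldh18a1 (1.49), which starts proline synthesis, the alanine transaminase Gpt2 (1.18), Oat (0.83) and Bcat2 (0.85). These counts rest on few arrays. The calls among transporters were 3 without day 10 replicate 2 and 3 without replicate 2 or 3 of day 30. Those among synthetases were 3 without day 10 replicate 1 or 2 or any day 30 array, and 8 without day 10 replicate 3. Those of the serine list were 3 without day 10 replicate 1 or any day 30 array, and those of the proline list were 2 without day 30 replicate 2.

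**Figure D4:**
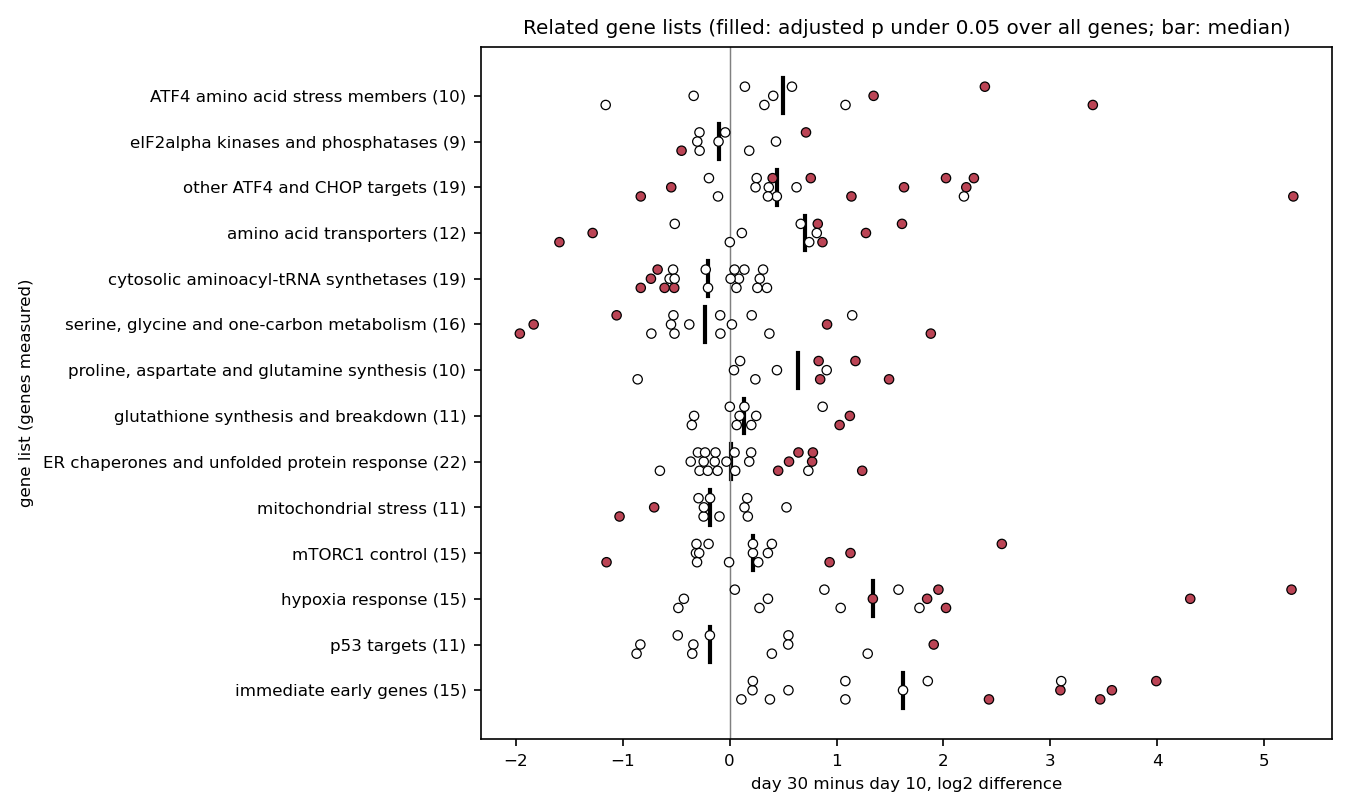
Log2 difference between day 30 and day 10 for each measured gene of the 10 members and of 13 related lists, with the median as a bar. Filled points passed over all genes. The aminoacyl-tRNA synthetases have 0 filled points above zero, while the amino acid transporters have them on both sides.

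Lists for other stress routes were counted too. Of 22 genes of endoplasmic reticulum chaperones and the unfolded protein response 6 rose and 0 fell, with a median of 0.01, against 11.2% and 9.92% of all genes. The calls were 2 without day 10 replicate 2 and 9 without day 10 replicate 3. Among the 6 were Sel1l (0.77), Dnajb9 (0.64), Ern1 (0.78) and Atf6 (1.24), whereas Hspa5, the chaperone BiP, differed by 0.05 (adjusted p = 0.735). Of 11 mitochondrial stress genes 0 rose and 2 fell, the chaperonin genes Hspd1 (-1.03) and Hspe1 (-0.71). Of 11 genes of the glutathione cycle, on which Chac1 acts, 2 rose, Anpep (1.12) and Ggct (1.03), and 0 fell. Without day 10 replicate 3 the calls in the mitochondrial and glutathione lists were 4 each. Among 15 genes of mTORC1 control 3 rose, Castor1 (0.94), Deptor (1.13) and the Ddit4 relative Ddit4l (2.55), and 1 fell, Rragd (-1.15). Of 15 hypoxia genes 6 rose and 0 fell, with a median of 1.34, among them Car9 (5.26), P4ha2 (1.95), Egln3 (4.31) and P4ha1 (1.34). Of 11 p53 target genes 1 rose, Fas (1.91), and 0 fell, with 2 calls without replicate 1 or 2 of day 10 or replicate 1 of day 30. Of 15 immediate early genes 5 rose and 0 fell, Ier3 (2.43), Egr1 (3.47), Junb (3.58), Egr2 (3.09) and Fos (3.99), with a median of 1.62. Day 30 replicate 1 was the lowest of its day in 14 of these 15 genes, against 6599 of all 18193 genes. Its median difference from the mean of the other 2 arrays was -1.51 in this list. Fos measured 8.99 there and 12.68 and 13.06 in day 30 replicates 2 and 3. The calls were 9 without day 30 replicate 1 and 3 without day 10 replicate 2 or day 30 replicate 2.

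For each of the 3 members past the F test, the genes with the most similar course were those with the smallest root mean square difference in log2 signal over the 9 arrays after each gene was centred on its own mean. Atf5 was nearest to Trib3 (0.203), with log2 signals of 7.29, 7.10 and 6.91 at day 10, 7.14, 8.43 and 7.43 at day 20, and 9.26, 9.24 and 9.44 at day 30. Next were 2310040G24Rik (0.306) and the phosphorylase kinase gene Phkg1 (0.317). Rnf13 (0.179), Fam160a1 (0.189) and the sarcoglycan gene Sgcb (0.193) were nearest to Ddit3. Those closest to Chac1 were the immediate early gene Egr2 (0.662), Hjv (0.724) and Cidea (0.730). The distance grows with a gene's own spread, whose SD over the 9 arrays was 1.70 in Chac1, 1.11 in Trib3 and 0.67 in Ddit3. Distances are therefore not compared between these members. The similar courses are descriptions across arrays of 3 days and carry no test.

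**Figure D5:**
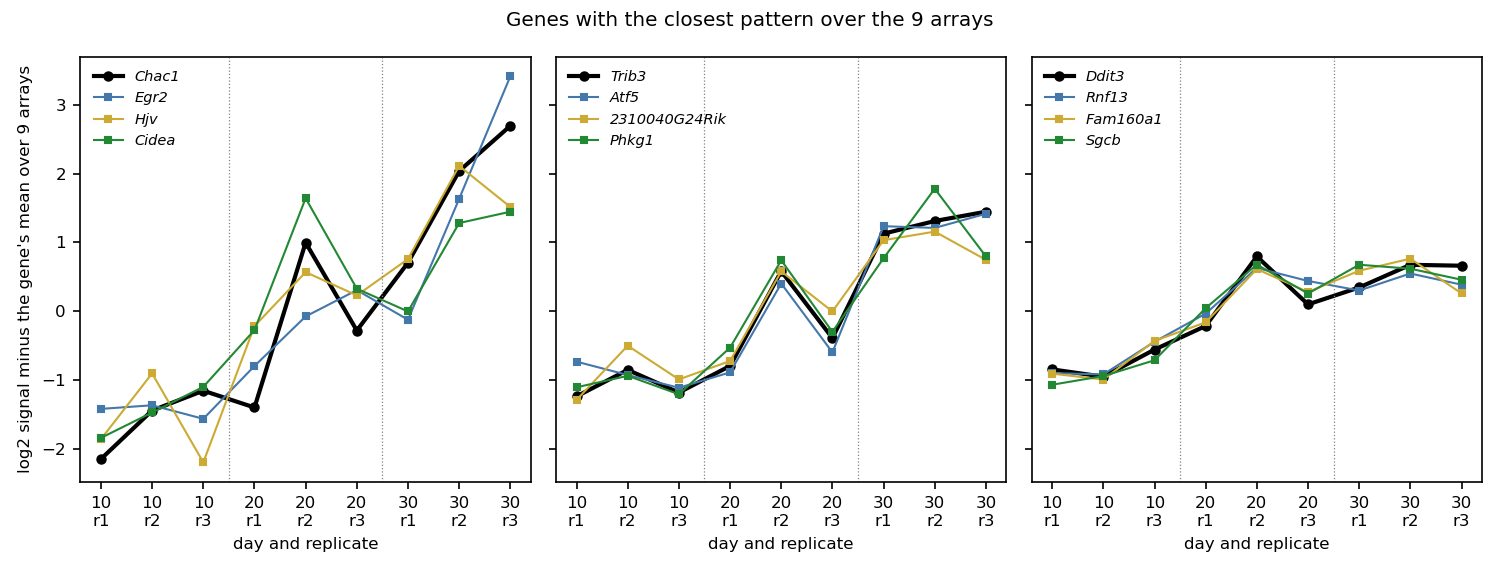
Log2 signal of Chac1, Trib3 and Ddit3 (black) and of the 3 genes nearest to each, relative to each gene's mean over the 9 arrays, by day and replicate. The lines only join the points of a gene, since replicates have no order, and Atf5 follows Trib3 including the high day 20 replicate 2.

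Markers of some other cell types moved as well, where 11.2% of all genes rose and 9.92% fell between day 10 and day 30. The 13 cardiomyocyte markers were present throughout: the log2 of their summed signal was 16.19 to 16.72 at day 10, 16.56 to 16.82 at day 20 and 16.76 to 16.88 at day 30, with 2 rises and 0 falls between day 10 and day 30 (5 calls without day 10 replicate 3). Of 11 fibroblast and matrix markers 10 rose and 0 fell, and the log2 of their summed signal was 10.99 to 12.91 at day 10, 14.78 to 15.75 at day 20 and 16.21 to 16.47 at day 30. Of 8 smooth muscle markers 2 rose and 2 fell, and of 8 endothelial markers 0 rose and 1 fell. Of 9 endoderm and epithelial markers 1 rose and 3 fell, of 8 neural markers 0 and 3, and of 8 blood markers 1 and 0. With 1 array left out, the endothelial calls ran from 0 to 4 and the neural ones from 0 to 5. Of 9 markers of undifferentiated cells 7 fell, and of 13 cell cycle genes 6 fell. The cell cycle calls were 13 without day 10 replicate 3, and 2 without replicate 1 or 2 of day 10 or of day 30. The part of these shifts in the rises of Chac1, Trib3 and Ddit3 was not tested, and in bulk RNA a change in the share of a cell type cannot be told apart from a change in RNA per cell. Day 10 arrays varied more than the others (median SD of a gene 0.187, 0.130 and 0.137 at day 10, 20 and 30). The control RNAs added before labelling were lower in day 10 replicates 2 and 3 (5.24 and 5.09) than in the other 7 arrays (5.91 to 6.69). The actin difference between 3 prime and 5 prime probe sets was highest in day 30 replicate 2, at 0.79 against 0.23 to 0.59 elsewhere, and that of Gapdh was 0.06 there and negative on the other 8 arrays.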

How the data were processed

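The authors deposited processed log2 signals for each array. The labels' protocols give total RNA in TRIzol and a biotin-labelling kit that primes from the 3 prime end, while the sources used here do not give the summary method, normalization or log base. Log2 was inferred from the range of 2.775 to 14.52, and the values were used as deposited, their array medians spanning 0.075. No scanner files were used, so background was not judged and the 9 arrays limit the precision. Symbols come from the platform annotation. Of 45101 probe sets, 64 were controls, 34945 had 1 symbol, 932 several and 9160 none, and 34741 of those with 1 symbol matched the reference by identifier. Each of the 18193 genes took its brightest probe set on average, with no filter. Means per day were fitted by limma 3.58.1 under R 4.3.3, using lmFit and eBayes. Residual degrees of freedom were 6, with 2.18 from the prior. P-values are two-sided and adjusted by Benjamini-Hochberg over all genes, or over 45037 probe sets for values of single probe sets. In simulated data for day 30 against day 10 over 18193 genes, the fit recovered 66 of 100 genes given a 2-fold change and 86 of 100 given a 4-fold change, with 8 false calls among 160. Only those genes were given a change, while 3841 genes were called in the data for that comparison. The cut-off on the unadjusted p therefore differs, and the shares recovered do not carry over to the data.

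The members and the 22 other lists (277 genes, 265 measured, 19 entries under an older symbol) were chosen with earlier results of these data known. All members are named with every probe set, and each related list names up to 4 genes by adjusted p in day 30 against day 10. Genes outside that rule were named after their values were seen. They are Slc7a11, Mthfd2, Eif2ak4 and Hspa5 for their roles, Yars and Aars for the highest differences of their list, and those needed to complete a count. Promoter windows came from RefSeq. Alternatives were other normalizations, a filter on dim genes, other probe sets for a gene, array weights, an intensity trend, fits restricted to the days compared, a block for the replicate number, and each array left out.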

Additional observations from a re-analysis of the deposited data

How the results depend on the processing

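The calls of Chac1, Trib3 and Ddit3 for day 30 against day 10 held in all 18 alternatives each, with lowest and highest differences of 2.96 and 3.95, 2.24 and 2.68, and 1.16 and 1.46. Members called there were 3 to 4 when one array was left out, 0 to 2 for day 20 against day 10, 0 to 1 for day 30 against day 20, 1 to 4 over any day and 0 to 1 for the difference of the changes. Members called for day 20 against day 10 were 2 without dim genes, 2 with array weights and 0 in a fit of only those days, and array weights called 1 for day 30 against day 20 and 1 for the difference of the changes. Over all genes, leaving out one array gave 1014 to 4646 genes called for day 20 against day 10, 5 to 160 for day 30 against day 20, 2572 to 5084 for day 30 against day 10 and 1932 to 5047 over any day, against 2545, 61, 3841 and 3189. Array weights gave 5612, 311, 6126 and 6429. Fits of only the days compared gave 1326 for day 20 against day 10, and the most variable probe set gave 38 for day 30 against day 20. The deviations of same-numbered arrays from their day means correlated between -0.15 and 0.43, not all above 0.1, so the arrays were treated as unpaired, though a few genes were highest in replicate 2 on every day. With the replicate number as a block, 33 genes were called for day 30 against day 20, and the members called were 1, 0 and 3 in the 3 comparisons, as without it. Small differences turned sign: for day 20 against day 10, Phgdh was at 0.0147 under quantile normalization and 0.0224 when its probe sets were averaged, and the most variable probe set put Asns at -0.0349 and Atf4 at 0.14. Atf3 was at 0.34 for day 30 against day 10 with array weights. With one array left out, the day 20 against day 10 difference ran from -0.62 to 0.61 in Asns, -0.0379 to 0.58 in Ddit4, -0.27 to 0.12 in Atf4, -0.27 to 0.0678 in Sesn2 and -0.58 to 0.44 in Phgdh. That of day 30 against day 20 ran from -0.44 to 0.11 in Ddit4 and -0.0328 to 0.98 in Phgdh, and that of day 30 against day 10 from -0.15 to 0.36 in Ddit4, -0.89 to 0.27 in Atf3 and -0.13 to 0.79 in Phgdh. The cause was not tested. Testing only probe sets with 1 symbol changed 0 of 60 calls of the members' probe sets. With 3 arrays a day, the intervals are wide for Asns, Atf3, Psat1 and Phgdh.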

Other observations

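Day 20 replicate 2 was also far above the other arrays of its day in genes outside this pathway, which were picked out after their values were seen. The gene with the highest excess over the other two arrays of that day was Sln, which encodes the calcium pump regulator sarcolipin of atrial muscle, at 10.02 against 6.34 and 7.57. Among the next was the potassium channel gene Kcnj3 at 8.24 against 5.03 and 6.58. For some of these genes the excess was not particular to day 20. Vsnl1, a calcium sensor gene, was at 8.04 in replicate 2 against 4.76 and 4.44 at day 10, at 7.19 against 4.71 and 4.92 at day 20, and at 7.64 against 4.83 and 4.78 at day 30. Mab21l2 in replicate 2 was at 9.44 against 6.54 and 6.76 at day 10, 8.52 against 6.28 and 6.48 at day 20, and 8.47 against 6.09 and 6.37 at day 30. Slc4a10 in replicate 2 was at 5.78, 7.27 and 6.77 at day 10, 20 and 30, against 3.76 to 4.67 on the other arrays. Sln was highest in replicate 2 within day 30 as well, at 12.50 against 8.61 and 8.92. By the excess at day 20, Asns ranked at 13 of 18193 genes.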
